A study of Rattus norvegicus with 6 samples.

Results

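The genes described here encode AP-1 subunits and immediate early transcription factors: Fos, Fosb, Fosl1, Fosl2, Jun, Junb, Jund, Atf3, Egr1 and Maff. They were taken by gene name from the deposited table of 19266 genes, where 9 of the 10 were measured. Junb was not analysed here. All 9 measured genes had an FPKM (fragments per kilobase per M fragments, a level scaled for gene length) of at least 1 in at least 3 of 6 libraries and were tested with 11559 genes in all.

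AP-1 is a dimer of basic leucine zipper (bZIP) proteins. Jun proteins pair with each other, with Fos proteins or with ATF proteins, whereas Fos proteins need a partner from outside their own family. The genes of Fos, Fosb, Egr1 and Jun are known for a rapid and short-lived response to growth factors, stress and toll-like receptor ligands, driven by MAP kinases. Fosl1 (Fra-1) and Fosl2 (Fra-2) lack the strong activation domain of Fos, come later, and are known in stromal cells for matrix and bone gene control.

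RNA was poly(A)-selected from the rat bone marrow mesenchymal stem cell line SCSP-402, labelled wild type, after co-culture with BV2, a mouse microglial line. There were 3 libraries of the co-culture without lipopolysaccharide (LPS, the bacterial ligand of toll-like receptor 4) and 3 of the co-culture with LPS. All 6 shared 1 batch label, while the LPS dose, its duration and the layout of the co-culture were not stated. The labels do not say that replicates were separate cultures, so p-values speak only of these libraries, whose spread may be technical. Gene positions below are those of the deposited table, in mRatBN7.2. Libraries held 77.4 M to 82.03 M estimated count units. On the first principal component (76.5% of the variance), LPS libraries took values from 19.5 to 22.5, untreated replicates 2 and 3 took -26.7 and -26.6, and untreated replicate 1 was intermediate at -11.0. Each of the 11 mesenchymal stromal markers in the table reached 1 FPKM in at least 1 library. Vcam1 did so only in LPS replicate 3 (1.08 FPKM) and was not tested. The sum of the 11 was 22309 to 24505 FPKM in untreated and 17162 to 17571 FPKM in LPS libraries. The collagen genes Col1a1, Col1a2 and Col3a1 dominated that sum and fell, with Itgb1, while 5 of the 10 tested markers (Pdgfra, Nt5e, Eng, Pdgfrb and Thy1) rose. Of 17 microglia and macrophage markers, 13 stayed under 1 FPKM in every library, and the highest value among Ptprc, Itgam, Aif1, Csf1r and Spi1 was 0.176 FPKM. The markers that reached 1 FPKM were Tmem119, Cd14, Fcer1g and Lyz2. The summed level of the 17 was 75.5 to 84.8 FPKM in untreated and 83.8 to 110.3 FPKM in LPS libraries. Tmem119 dominated that sum at 62.4 to 70.7 FPKM, and did not pass the edgeR test used below (adjusted p = 0.413). Nor did Fcer1g (adjusted p = 0.541). By the same test Cd14 was called higher (log2 fold change 0.37, adjusted p = 0.0412) and Lyz2 lower (-0.79, adjusted p = 0.0462). Both calls were lost in some alternatives, such as edgeR without a filter on low values (adjusted p = 0.0546 for Cd14 and 0.0777 for Lyz2). Fcer1g was at 27.4 FPKM in LPS replicate 1, but at 2.29 and 2.98 FPKM in LPS replicates 2 and 3. No marker of that list was at 0 in all 6 libraries, and the part of mouse cells in the results below was not tested. In such bulk samples, fewer cells that make an RNA and less of it per cell cannot be told apart.

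With LPS, Atf3 and Jund fell, while Fosl1, Fosl2 and Maff rose. Atf3 showed by far the widest change, 3.10-fold lower, against differences of 1.20-fold to 1.42-fold for the other 4. Fos, Fosb, Jun and Egr1 did not pass the test, with fitted differences of 1.31-fold to 1.39-fold towards lower values. LPS replicate 3 lay within the untreated range for all 4, and LPS replicate 1 did so too for Fosb. By edgeR's quasi-likelihood test with Benjamini-Hochberg adjustment over all tested genes, which gives every adjusted p here, 3 of the 9 genes were higher (33.3%) and 2 lower (22.2%). Over all tested genes 20.1% were called higher and 19% lower, 39.1% in all, and the counts over 9 genes are not read as a property of the set. FPKM ranges of the groups did not overlap for the same 5 genes, where 32.8% of all tested genes were separate with LPS higher and 20.6% with LPS lower (53.3% in all).

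**Figure D1:**
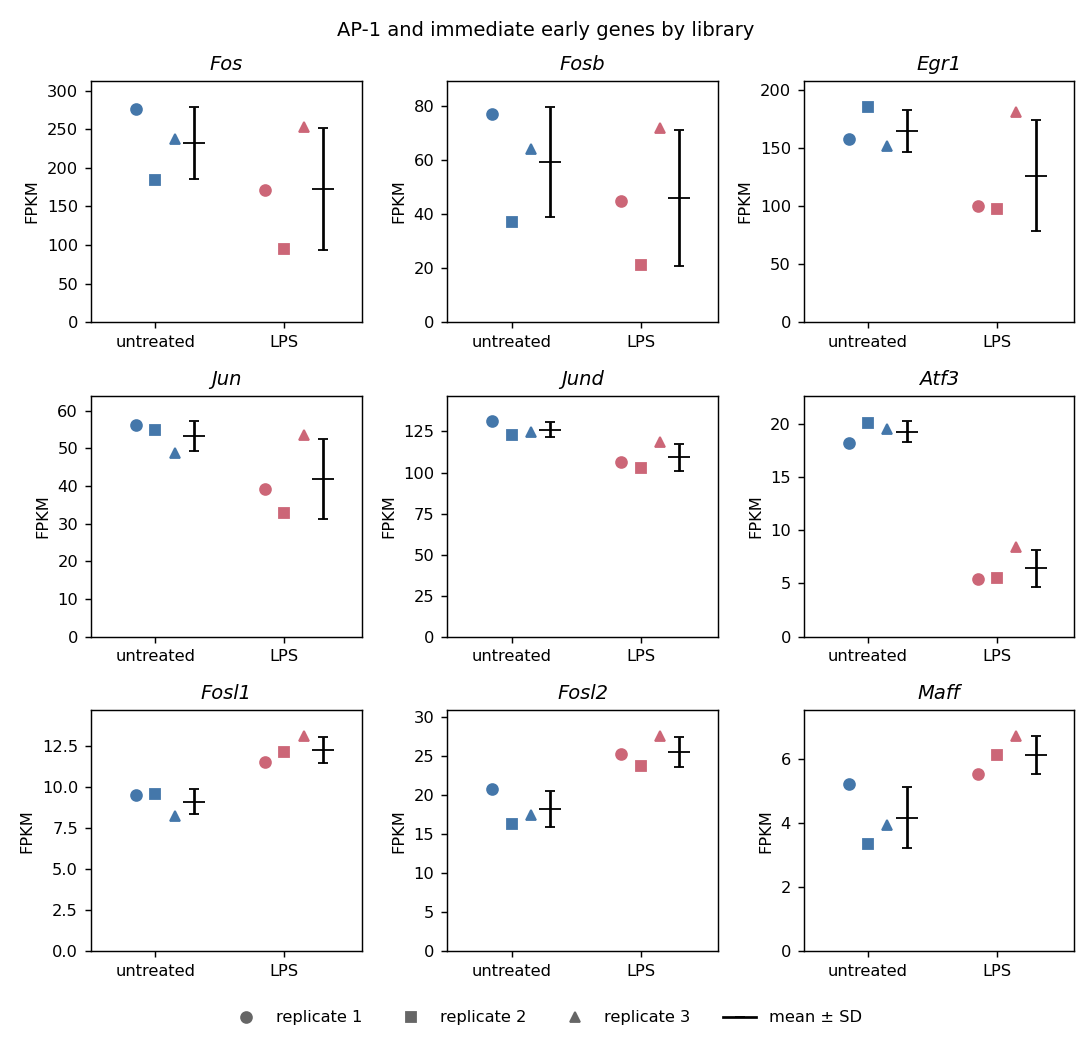
FPKM of the 9 measured genes in each library, with untreated libraries in blue, LPS libraries in red, replicates by symbol and the mean ± SD (n = 3) as a black bar. Groups are separate for Jund, Atf3, Fosl1, Fosl2 and Maff. LPS replicate 3 (triangle) lies among the untreated values for Fos, Fosb, Egr1 and Jun, as does LPS replicate 1 for Fosb.

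Without LPS, the order of mean levels was Fos, Egr1, Jund, Fosb, Jun, Atf3, Fosl2, Fosl1 and Maff, from 232.7 down to 4.18 FPKM. Neighbours whose library values overlapped were Fos and Egr1, Fosb and Jun, and Atf3 and Fosl2. With LPS the order was Fos, Egr1, Jund, Fosb, Jun, Fosl2, Fosl1, Atf3 and Maff, from 173.0 down to 6.13 FPKM. Atf3 then stood beside Maff, with overlapping values, and Fos, Egr1 and Jund overlapped with each other, as did Fosb and Jun.

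Promoters were available for 6 of the 9 measured genes (RefSeq, build GRCr8, 250 bases before to 50 after the annotated start). The promoters below are shown because they hold matches to elements through which growth factor and kinase signals are known to reach such genes, and because the genes differed in their response: Egr1 was not called, Jund fell and Maff rose. Capitals mark the CArG boxes of Egr1, the cAMP response element and NF-kB match of Jund and the cAMP response element of Maff, not EGR sites, read 5′ to 3′ on the gene's strand, from chr18:26736828-26737127 (plus strand), chr16:18769722-18770021 (minus strand) and chr7:112792537-112792836 (plus strand).
Egr1: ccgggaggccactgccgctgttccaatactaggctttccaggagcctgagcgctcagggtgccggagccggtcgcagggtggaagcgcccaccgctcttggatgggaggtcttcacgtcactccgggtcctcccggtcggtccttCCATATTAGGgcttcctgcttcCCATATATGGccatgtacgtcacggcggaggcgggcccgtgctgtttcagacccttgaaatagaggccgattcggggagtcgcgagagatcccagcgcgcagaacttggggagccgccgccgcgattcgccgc
Jund: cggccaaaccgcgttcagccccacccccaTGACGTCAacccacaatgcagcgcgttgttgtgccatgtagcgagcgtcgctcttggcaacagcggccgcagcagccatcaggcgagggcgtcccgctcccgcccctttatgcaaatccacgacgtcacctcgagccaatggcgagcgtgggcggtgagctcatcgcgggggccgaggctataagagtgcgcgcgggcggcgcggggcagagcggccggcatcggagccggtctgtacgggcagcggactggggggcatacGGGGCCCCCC
Maff: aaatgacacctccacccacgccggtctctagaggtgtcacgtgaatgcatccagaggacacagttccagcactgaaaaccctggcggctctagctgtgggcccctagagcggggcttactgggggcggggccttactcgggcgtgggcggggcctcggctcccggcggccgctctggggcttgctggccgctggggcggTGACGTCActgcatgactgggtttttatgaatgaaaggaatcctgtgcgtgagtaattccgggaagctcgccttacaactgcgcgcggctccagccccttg

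Both strands were searched for 5 motifs: the AP-1 site TGANTCA, the cAMP response element TGACGTCA, the EGR site GCGNGGGCG, the CArG box bound by serum response factor and the NF-kB site. The Egr1 promoter held 2 CArG boxes, starting 105 and 83 bases before the annotated start, where 1.64% of 33469 rat promoters of 300 bases held at least 1. Maff and Jund each held 1 cAMP response element, starting 51 and 221 bases before the start, which 1.83% of promoters had. Jund also held an NF-kB match within the 50 bases after its start, a motif found in 7.51% of promoters. EGR sites were found 3 times in Jund, 2 times in Fosl2 and 1 time in Maff, against 4.98% of promoters with any. The AP-1 site, present in 7.33% of promoters, was found in none of the 6 windows, and Fosb and Fosl1 held none of the 5 motifs. No searched motif overlapped another in these windows. These matches describe letters only.

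Atf3 (ENSRNOG00000003745, chromosome 13, 102751321 to 102764631, minus strand), a stress-induced bZIP factor known as a brake on toll-like receptor responses in mouse macrophages, stood at 18.16, 20.04 and 19.54 FPKM in the untreated libraries and at 5.40, 5.47 and 8.42 FPKM in the LPS libraries. Every LPS value lay under every untreated value, with LPS replicate 3 the highest of its group. Its mean fell from 19.2 ± 0.972 to 6.43 ± 1.72 FPKM (SD, n = 3), a log2 fold change of -1.63 ± 0.16 (SE) with an adjusted p of 0.000211. Only 60 of the 11559 tested genes had a lower log2 fold change.

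Jund (ENSRNOG00000019568, chromosome 16, 18734122 to 18735799, minus strand), the Jun protein known for steady expression in resting cells, was at 131.1, 122.6 and 124.9 FPKM without LPS and at 106.2, 102.6 and 118.7 FPKM with it. The groups did not overlap, and LPS replicate 3 was again nearest to the untreated values. The difference was small, from 126.2 ± 4.40 to 109.2 ± 8.45 FPKM (SD, n = 3; log2 fold change -0.26 ± 0.061 SE, adjusted p = 0.0104).

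Fosl1, which encodes Fra-1, had 9.50, 9.57 and 8.22 FPKM in untreated and 11.5, 12.1 and 13.1 FPKM in LPS libraries. All LPS libraries were higher than all untreated ones. The mean rose from 9.10 ± 0.761 to 12.2 ± 0.797 FPKM (SD, n = 3; log2 fold change 0.38 ± 0.073 SE, adjusted p = 0.00406). Fosl1 (ENSRNOG00000020552, chromosome 1, plus strand, 202754529 to 202764930) overlaps Ccdc85b on the other strand, which was listed at 0 to 0.798 FPKM. The counting's strand setting was not stated, so reads of this pair could be exchanged. None of the other 8 measured genes overlapped another gene of the table.

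Fosl2 (ENSRNOG00000068412, chromosome 6, 24300956 to 24320034, minus strand), which encodes Fra-2, rose too. It was at 20.8, 16.3 and 17.5 FPKM without LPS and at 25.3, 23.7 and 27.6 FPKM with it, again with no overlap. Its mean rose from 18.2 ± 2.34 to 25.5 ± 1.93 FPKM (SD, n = 3; log2 fold change 0.44 ± 0.092 SE, adjusted p = 0.00606).

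Maff (ENSRNOG00000012886, chromosome 7, 110912499 to 110923851, plus strand), a small Maf protein that lacks an activation domain and pairs with NRF and BACH factors, had the lowest mean of the 9 genes in both groups. With LPS its values overlapped those of Atf3. Maff was at 5.24, 3.36 and 3.95 FPKM in the untreated libraries and at 5.54, 6.14 and 6.73 FPKM in the LPS libraries. The groups did not overlap, but untreated replicate 1 was close to LPS replicate 1. The mean rose from 4.18 ± 0.960 to 6.13 ± 0.597 FPKM (SD, n = 3; log2 fold change 0.50 ± 0.16 SE, adjusted p = 0.0333). The call was lost without any 1 library other than untreated replicate 1, with adjusted p of 0.0853 without untreated replicate 2, 0.0916 without untreated replicate 3, 0.0541, 0.0916 and 0.105 without LPS replicates 1, 2 and 3, and held at 0.000664 without untreated replicate 1.

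Egr1 (ENSRNOG00000019422, chromosome 18, 26462981 to 26466766, plus strand), a zinc finger factor of the immediate early response, was among the most abundant of these RNAs. It stood at 157.4, 185.3 and 151.5 FPKM in untreated libraries and at 99.7, 97.7 and 180.9 FPKM in LPS libraries. LPS replicates 1 and 2 lay under every untreated library, while LPS replicate 3 lay among them. The log2 fold change was -0.44 ± 0.22 (SE; means 164.7 ± 18.0 and 126.1 ± 47.5 FPKM, SD, n = 3), with an adjusted p of 0.151.

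Jun (ENSRNOG00000026293, chromosome 5, 109893145 to 109897656, minus strand), the founding AP-1 subunit, had 56.1, 54.9 and 48.8 FPKM without LPS and 39.3, 32.9 and 53.6 FPKM with it. LPS replicate 3 was the only LPS library within the untreated range. The log2 fold change was -0.39 ± 0.15 (SE; means 53.3 ± 3.90 and 41.9 ± 10.6 FPKM, SD, n = 3), with an adjusted p of 0.0739.

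Fos (ENSRNOG00000008015, chromosome 6, 105121170 to 105124036, plus strand), the partner that forms the classical AP-1 dimer with Jun, had the highest mean of the 9 genes in both groups. Its FPKM was 276.4, 183.8 and 237.8 in untreated and 171.7, 94.4 and 252.9 in LPS libraries. The LPS values spanned 2.68-fold and the untreated values 1.504-fold, and the groups overlapped. The log2 fold change was -0.47 ± 0.31 (SE; means 232.7 ± 46.5 and 173.0 ± 79.3 FPKM, SD, n = 3; adjusted p = 0.253).

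Fosb (ENSRNOG00000046667, chromosome 1, 78954115 to 78961465, minus strand), a close relative of Fos, varied most. It was at 76.9, 37.1 and 64.2 FPKM without LPS and at 44.8, 21.3 and 71.8 FPKM with it, a 3.37-fold span within the LPS group and a 2.07-fold span within the untreated group. The groups overlapped, with a log2 fold change of -0.42 ± 0.40 (SE; means 59.4 ± 20.3 and 46.0 ± 25.2 FPKM, SD, n = 3; adjusted p = 0.450).

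Without LPS replicate 3, Egr1 (log2 fold change -0.79, adjusted p = 0.00146), Jun (-0.61, adjusted p = 0.00408) and Fos (-0.85, adjusted p = 0.0464) passed as lower, and Fosb did not (-0.89, adjusted p = 0.116). That raised the lower calls from 2 to 5 of 9, while those over all tested genes went from 2201 to 1872. LPS replicate 3 was the highest LPS library of Egr1, Jun, Fos and Fosb, so leaving it out could only lower their LPS means. Atf3, Jund, Fosl1 and Fosl2 kept their calls in each fit that left out 1 library. Directions of all 9 genes were the same in those fits. Without LPS replicate 2, however, Fosb came to -0.07 (adjusted p = 0.885) and Fos to -0.18 (adjusted p = 0.549).

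**Figure D2:**
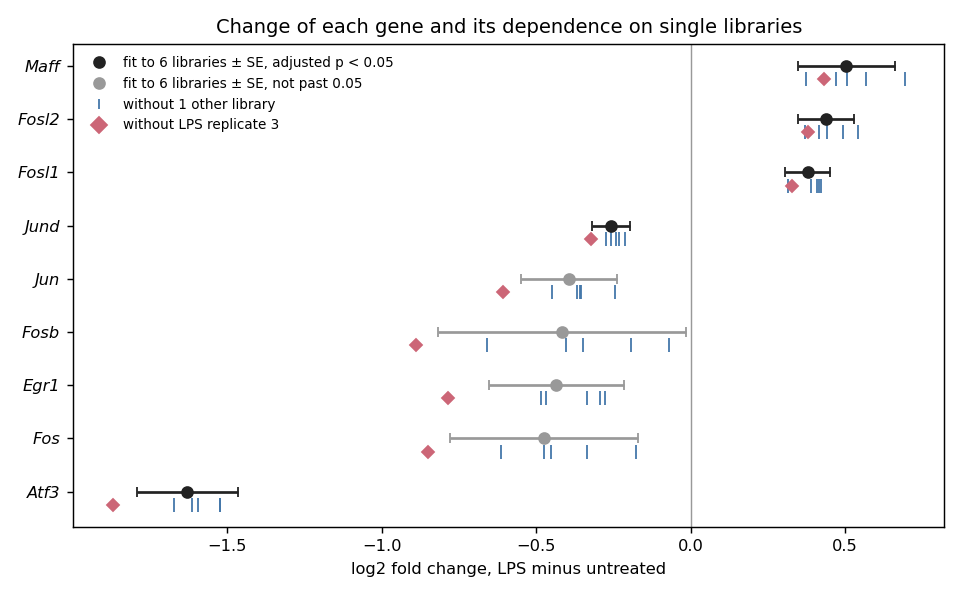
Log2 fold change (LPS minus untreated) of each gene from the edgeR fit to 6 libraries (circles ± SE, black where adjusted p was under 0.05), with the values from fits that left out 1 library beneath. Leaving out LPS replicate 3 (red diamonds) gave the lowest value for Fos, Fosb, Egr1, Jun, Jund and Atf3.

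Within the LPS group, LPS replicate 3 was the highest library in 9 of 9 genes, a position it held for 33.8% of all tested genes. Its deviation from the LPS mean on the log2(FPKM + 1) scale ran from 0.092 for Fosl1 to 0.79 for Fosb, with a median of 0.37, against a median of 0.00090 over all tested genes. LPS replicate 2 was the lowest in 6 of the 9, where the background was 32%. For Fos and Fosb, LPS replicate 2 deviated further (-0.76 and -0.91) than LPS replicate 3 (0.66 and 0.79). Maff deviated about as much in LPS replicate 1 (-0.12) as in LPS replicate 3 (0.12). Among 26 other tested immediate early genes, LPS replicate 3 was the highest in 22 (84.6%), with a median deviation of 0.20. Egr2, Nr4a1, Ier2 and Btg2, which are examples chosen after their values were seen, had 8.29, 59.6, 23.1 and 89.0 FPKM there, against at most 3.79, 32.8, 13.7 and 52.7 FPKM in LPS replicates 1 and 2. LPS replicate 3 had 82.03 M count units, where the others had 80.2 M and 79.1 M. The part of depth in this pattern was not tested.

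**Figure D3:**
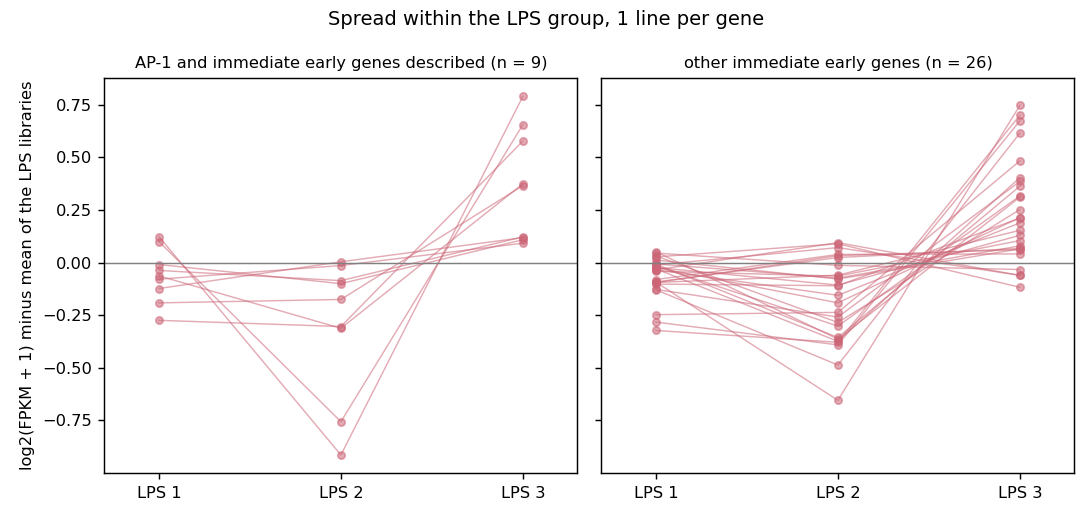
Deviation of each gene from its mean over the LPS libraries on the log2(FPKM + 1) scale, for the 9 genes described (left) and 26 other immediate early genes (right). Lines join the values of 1 gene and imply no order; LPS replicate 3 lies above 0 for all 9 genes on the left.

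The genes differed in how tightly replicates agreed. The SD within groups on the log2(FPKM + 1) scale was 0.72 for Fosb, 0.54 for Fos, 0.37 for Egr1 and 0.26 for Jun, larger than in 99.6%, 99.3%, 98.2% and 95.4% of tested genes. Atf3 (0.23) and Maff (0.20) exceeded 94.1% and 92.0% of genes. Fosl2 (0.14), Fosl1 (0.10) and Jund (0.085) exceeded 81.2%, 61.6% and 50.6%. Jund, Fosl1 and Fosl2, which passed the test with small changes, had the least spread of the 9.

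The make-up of Fos family RNA also differed between the groups' libraries. Fosl1 and Fosl2 together made up 7.91%, 10.5% and 7.85% of the summed FPKM of Fos, Fosb, Fosl1 and Fosl2 in untreated libraries, and 14.5%, 23.6% and 11.1% in LPS libraries. The LPS shares were all above the untreated ones, at 16.4% ± 6.46 against 8.75% ± 1.51 (SD, n = 3). Their own sum went from 27.3 ± 2.62 to 37.8 ± 2.56 FPKM. The summed FPKM of the 4 genes was 319.4 ± 68.8 and 256.7 ± 106.9, and Fos remained the main component in each library, at 62.3% to 74.5%. The shares are a description of RNA and were not tested.

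**Figure D4:**
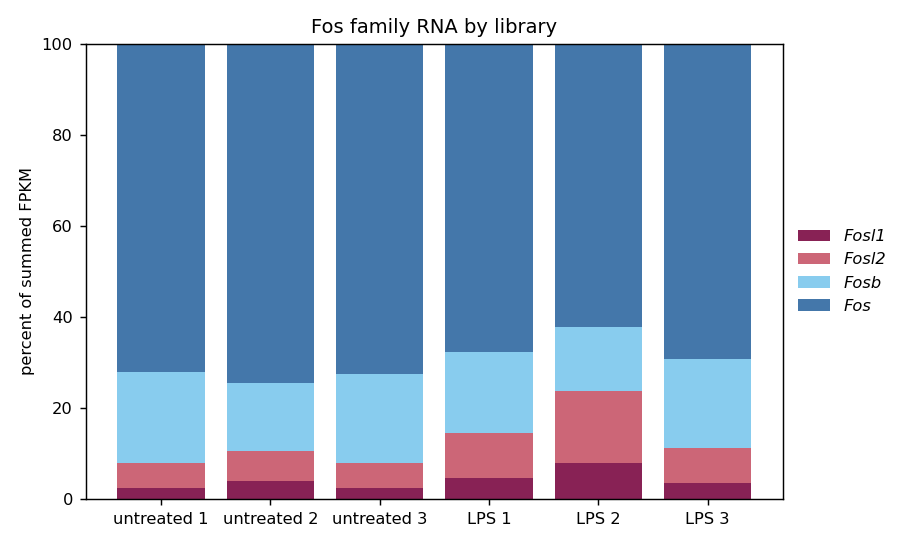
Share of each Fos family gene in the summed FPKM of Fos, Fosb, Fosl1 and Fosl2, as stacked percentages per library. Fosl1 and Fosl2 (red tones, at the base) reach at most 10.5% in untreated and at least 11.1% in LPS libraries, with 23.6% in LPS replicate 2.

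Profiles over the 6 libraries set some of the genes in pairs. By the root mean square difference between log2(FPKM + 1) profiles centred on their own means, Fos and Fosb were nearest to each other among the 9 (0.17), as were Jun and Egr1 (0.15), and Fosl2 and Maff (0.083). Fosl1 was nearest to Fosl2 (0.12), Jund to Jun (0.17), and Atf3 stood apart at 0.53 from its nearest neighbour, Egr1. Among 7356 other tested genes with a mean of at least 5 FPKM, those nearest to Egr1 were Jun (0.15), the related zinc finger gene Egr2 (0.16) and Mir214 (ENSRNOG00000035513, 0.18). Those nearest to Fosl1 were the ubiquitin ligase gene Rnf19b (0.023), the cholesterol synthesis gene Mvd (0.030) and the nucleolar protein gene Lyar (0.039). These distances rest on 6 libraries in 2 groups, were not scaled for the spread of each gene, and are a description.

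Other bZIP factors related to AP-1 fell more often than they rose. Of 25 symbols found in the table (26 rows, as Mafk has 2), 22 rows were tested, of which 9 fell and 3 rose (40.9% and 13.6%, where 19% and 20.1% of all genes did). Their median log2 fold change was -0.19, against 0.00012 over all tested genes. Creb5, a CREB family factor that can pair with Jun, fell from 1.09, 1.13 and 1.57 to 0.330, 0.425 and 0.341 FPKM (log2 fold change -1.84, adjusted p = 0.000295). It passed the expression filter through its untreated libraries alone, and was 3.57-fold lower by edgeR but 1.65-fold lower with limma on log2(FPKM + 1), a scale that understates changes of low genes. Atf5, a factor of the stress response, fell from 129, 185 and 103 to 46.5, 57.2 and 51.7 FPKM (log2 fold change -1.47, adjusted p = 0.000609). The C/EBP factors Cebpb and Cebpd, mediators of the acute phase response, went the other way. Cebpb rose from 45.4, 26.04 and 24.2 to 87.3, 93.1 and 85.6 FPKM (log2 fold change 1.43, adjusted p = 0.00106), and Cebpd from 78.7, 43.2 and 37.5 to 127, 142 and 140 FPKM (1.31, adjusted p = 0.00307). In both, untreated replicate 1 was the highest untreated library and still under every LPS library.

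Among 26 tested immediate early genes outside the main set, 9 fell and 3 rose (34.6% and 11.5%, where 19% and 20.1% of all genes did), with a median log2 fold change of -0.12. Ppp1r15a, a phosphatase subunit that restores translation after stress, fell from 13.1, 13.2 and 12.1 to 6.26, 5.62 and 9.36 FPKM (log2 fold change -0.90, adjusted p = 0.00393). The Krüppel-like factors Klf6 and Klf2 had log2 fold changes of -0.89 and -0.88 (adjusted p = 0.000131 and 0.000364). Egr3, a relative of Egr1, was at 3.08, 4.76 and 3.70 FPKM without LPS and 0.891, 0.819 and 2.84 FPKM with it (log2 fold change -1.39, adjusted p = 0.0364). The Egr3 call was lost with DESeq2 (adjusted p = 0.0518), without a filter on low values (0.0592) and without untreated replicate 2 (0.105), untreated replicate 3 (0.0723), LPS replicate 1 (0.117) or LPS replicate 2 (0.115). Without LPS replicate 3 its log2 fold change was -2.22. Egr3 passed the expression filter owing to its untreated libraries. The 3 that rose were Zfp36l1, Btg1 and Ier5, and this count fell to 0 without untreated replicate 3 or LPS replicate 1 and to 1 without LPS replicates 2 or 3 or untreated replicate 2. The count of lower genes was 5 without LPS replicate 1.

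Of 31 tested kinases and promoter factors upstream of these genes, 6 rose and 9 fell (19.4% and 29.0%, where 20.1% and 19% of all genes did), with a median log2 fold change of -0.085. Map3k8, the kinase that links toll-like receptors to MEK, rose from 1.51, 0.987 and 0.721 to 2.40, 2.40 and 2.55 FPKM (log2 fold change 1.14, adjusted p = 0.00450). It passed the expression filter owing to its LPS libraries. Map3k5, an upstream kinase of JNK and p38, rose from 3.47, 2.85 and 2.99 to 5.54, 5.19 and 4.85 FPKM (0.70, adjusted p = 0.000569). Of the MEF2 factors, which act on the Jun promoter, Mef2c fell from 8.43, 9.58 and 8.69 to 3.999, 3.717 and 4.203 FPKM (-1.21, adjusted p = 6.23e-05) and Mef2a had a log2 fold change of -0.49 (adjusted p = 0.000404), while Mef2d did not pass (-0.17, adjusted p = 0.0743). Srf, which binds CArG boxes such as those printed for Egr1, fell slightly (-0.23, adjusted p = 0.0110), and Nab2, a corepressor of Egr1, rose (0.37, adjusted p = 0.00630); both were chosen after their values were seen. Without LPS replicate 1 the lower genes numbered 5.

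Among genes known as targets of AP-1 or Egr1, rises outnumbered falls. Of 25 tested, 13 rose and 2 fell (52% and 8%, against 20.1% and 19% of all genes), with a median log2 fold change of 0.46. Several of them are also targets of NF-kB, and the list was drawn up with results of these data known. The gelatinase Mmp9 rose from 1.76, 0.373 and 0.482 to 10.7, 10.2 and 7.91 FPKM (log2 fold change 3.41, adjusted p = 0.00115). The chemokine Ccl2 rose from 135, 21.1 and 19.1 to 547, 580 and 568 FPKM (3.23, adjusted p = 0.00728), and the log2 fold changes of the stromelysin Mmp3 and the cytokine Il6 were 4.61 and 2.52 (adjusted p = 7.13e-05 and 0.00561). Mmp9 and Mmp3 were under 1 FPKM in untreated replicates 2 and 3, and passed the expression filter owing to their LPS libraries. Untreated replicate 1 was the highest untreated library for Mmp9, Ccl2, Mmp3 and Il6. Without it, Mmp9 was 21.6-fold higher where it had been 10.6-fold, Ccl2 27.1-fold where it had been 9.37-fold, Mmp3 37.5-fold where it had been 24.4-fold and Il6 11.8-fold where it had been 5.74-fold. limma on log2(FPKM + 1) gave smaller values for Mmp9 and Mmp3, 5.93-fold and 15.9-fold (5.46-fold and 15.1-fold after quantile normalization), and a larger one for Ccl2, 14.4-fold. The 2 that fell were Hmox1 and Thbs1, and this count was 1 without LPS replicates 1 or 2 or untreated replicate 2.

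**Figure D5:**
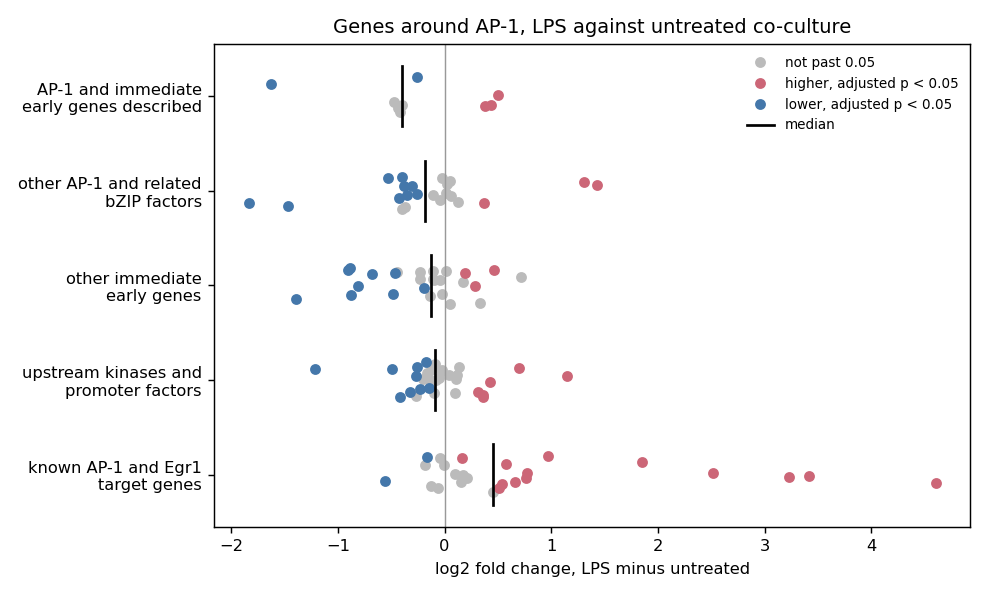
Log2 fold change (LPS minus untreated, edgeR) of each tested gene in 5 lists, with the list median as a black line and colours for genes past an adjusted p of 0.05. The median lies at -0.39 for the 9 AP-1 and immediate early genes, between -0.19 and -0.085 for the next 3 lists and at 0.46 for known target genes.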

How the data were processed

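The deposited table held, for each gene and library, an estimated (expected) count and an FPKM value. Per the file headers, the FPKM columns are the authors' fragments per kilobase and per M fragments. The deposited count columns were treated like expected counts, since 31.9% to 32.9% of values from 1 to 40 were multiples of 4 (25% by chance); they were whole, so rounding changed nothing. The build mRatBN7.2 and the tools HISAT2 2.2.1, StringTie 2.1.6, cutadapt 1.9, edgeR and DESeq2 are named per the submitters' processing notes, without their roles; how counts were derived is not given in the sources used here.

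Genes with FPKM of at least 1 in at least 3 libraries were tested by edgeR 4.0.16 (glmQLFit, glmQLFTest, TMM factors, group only; R 4.3.3), with Benjamini-Hochberg adjustment over 11559 genes and a threshold of 0.05. Standard errors were obtained from each gene's F statistic and log2 fold change. limma 3.58.1 on log2(FPKM + 1), DESeq2 1.42.0 and other scalings and filters were alternatives. Replicate libraries differed by more than sampling noise (chi-square per degree of freedom 4.66 to 22.2, counts divided by 4). The test was also run on simulated counts for these 11559 genes with 200 changed. It recovered 86% of genes changed 1.5-fold and 100% of those changed 2-fold or more, with a false share of 2.53% among its calls. The simulation gave every gene 1 common dispersion, which real libraries need not have. Fos, Fosb, Egr1 and Jun varied within groups more than at least 95.4% of tested genes. No change under 1.5-fold was simulated, so recovery of changes as small as those of Jund, Fosl1, Fosl2 and Maff was not tested.

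The genes described and the lists were chosen with earlier results of these data known. The text names all 9 measured genes and, of each related list, the up to 4 called genes with the largest change and a mean of at least 1 FPKM. Other names complete a count, a family or a marker list, or come from the profile and overlap searches. The remaining ones are marked as chosen after their values were seen.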

Additional observations from a re-analysis of the deposited data

How the results depend on the processing

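Across 16 alternatives, no direction of the 9 genes turned, and Atf3 (log2 fold change -1.87 to -1.47), Jund (-0.32 to -0.21), Fosl1 (0.32 to 0.42) and Fosl2 (0.37 to 0.54) stayed past the threshold in each. Fosb passed in none (adjusted p 0.0596 to 0.885). The 9 genes gave 2 to 3 higher and 2 to 5 lower calls when 1 library was left out, and 3 higher and 2 to 3 lower calls in the other settings. Over all tested genes there were 1752 to 2635 higher and 1640 to 2419 lower calls when 1 library was left out. In the other settings there were 1779 to 2903 and 1672 to 2549. Leaving out 1 library gave 0 to 4 higher and 5 to 13 lower immediate early genes. It gave 5 to 12 lower genes of the upstream list and 1 to 3 lower target genes. With quantile-normalized FPKM 1 immediate early gene was higher. limma on log2(FPKM + 1), on log2(FPKM + 0.1) and on quantile-normalized values each gave 1 lower target gene; the cause was not tested. edgeR called 2323 genes higher and 2201 lower, limma on log2(FPKM + 1) 2903 and 1685; the members' counts did not differ between them. The labels gave same-numbered libraries only a shared number, and did not state a pairing. Over all tested genes their deviations correlated weakly (0.069, 0.085 and 0.12), though each library correlated best with its own number. With the replicate block in edgeR 2160 genes were higher and 2024 lower. Fos then passed (log2 fold change -0.57 ± 0.18 SE, adjusted p = 0.0448), and Fosb did not (-0.52 ± 0.18 SE, adjusted p = 0.0596). In the fit without a block, with 3 libraries per group, the standard error of Fosb (0.40) was near the size of its difference (-0.42). That of Fos (0.31) was large but smaller than its difference (-0.47).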
